A study of Mus musculus with 11 samples.

Results

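The mitochondrial ribosome large subunit genes of the deposited table are Mrpl10, Mrpl30, Mrpl41 and Gadd45gip1. They were chosen by gene symbol, and they are 4 of the 1293 genes in the table as held. RNA was sequenced after poly(A) selection from cardiac fibroblasts of infarcted left ventricles, taken 3 days after myocardial infarction (MI), in 5 Pw1 CKO and 6 control libraries. Pw1 is the imprinted zinc finger gene also called Peg3, and in the CKO mice its floxed alleles are deleted by a Cre driven from Pdgfra, a gene of fibroblasts and other mesenchymal cells. The labels word the genotypes in 2 ways. Label set 1 holds CKO 1 to 3 (Pdgfra-Cre;Pw1fl/fl) and control 1 to 3, described as wild type, Pw1fl/+ or Pw1fl/fl. Label set 2 holds 2 CKO libraries (PDGFRa Cre+;Pw1 fl/fl) and control 4 to 6 (Pw1 fl/fl). The columns of these 2 CKO libraries carry no number that matches a sample, which leaves set 2 as their only place, and they are named here CKO a and b. All mice had an infarct, the labels give no age, and they do not say whether a library is 1 mouse or a pool, so p-values measure the spread between libraries.

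The mitochondrial ribosome translates the few messenger RNAs encoded by mitochondrial DNA, all of which are for subunits of the respiratory chain and the ATP synthase. Its proteins are encoded in the nucleus, made in the cytosol and imported. Mrpl10 encodes uL10m, at the base of the stalk that recruits translation factors, and Mrpl30 encodes uL30m, a counterpart of a bacterial large subunit protein. Mrpl41 encodes mL41 and Gadd45gip1 encodes mL64, both without a bacterial counterpart. Gadd45gip1, also called Crif1, is also required in mice for the insertion of newly made respiratory chain proteins into the inner membrane, and it was first described as a nuclear partner of GADD45 proteins.

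The 4 genes lie on 4 chromosomes of GRCm38.p6, the build of the RefSeq gene table used here. Mrpl10 (gene ID 107732) spans chromosome 11, 97041582 to 97049213, on the plus strand. Mrpl30 (107734) spans chromosome 1, 37890477 to 37898338, on the plus strand, and in GENCODE M21 its start is 66 nt from the end of the annotated span of Mitd1, which is read in the opposite direction. Mrpl41 (107733) spans chromosome 2, 24972470 to 24975098, on the minus strand. Gadd45gip1 (102060) spans chromosome 8, 84832282 to 84835482, on the plus strand. In GENCODE M21, exons of Mrpl10 share 240 of 1708 bases (14.1%) with the antisense transcript Gm11574. No source used here says that reads were counted by strand, so reads where genes overlap on opposite strands cannot be assigned to one gene, and Gm11574 was not analysed here.

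RefSeq promoter windows, 250 bases before to 50 after the gene's start on GRCm38.p6, were matched for 3 of the 4 genes. No window was matched for Gadd45gip1. The 3 genes with a window moved in the same direction with TMM scaling, but not on the TPM scale, where Mrpl10 fell. Windows are printed on the gene's own strand, 5′ to 3′, with the motif matches in capitals. The letters searched on both strands were TGCGCA (the core of NRF1 sites), CCGGAA (the core of ETS factor sites such as GABP), AAGATGG (YY1), CCAAT (the CCAAT box) and GGGCGG (the GC box). NRF1, GABP and YY1 are known regulators of nuclear genes for mitochondrial proteins. None of the matches printed overlaps another.
Mrpl10, chr11:97041332-97041631, plus strand: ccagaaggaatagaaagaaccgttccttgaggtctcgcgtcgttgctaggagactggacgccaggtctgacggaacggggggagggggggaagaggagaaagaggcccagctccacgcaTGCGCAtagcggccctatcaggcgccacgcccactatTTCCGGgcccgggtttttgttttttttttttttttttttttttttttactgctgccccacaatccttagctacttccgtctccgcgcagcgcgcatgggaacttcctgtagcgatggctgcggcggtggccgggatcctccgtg
Mrpl30, chr1:37890227-37890526, plus strand: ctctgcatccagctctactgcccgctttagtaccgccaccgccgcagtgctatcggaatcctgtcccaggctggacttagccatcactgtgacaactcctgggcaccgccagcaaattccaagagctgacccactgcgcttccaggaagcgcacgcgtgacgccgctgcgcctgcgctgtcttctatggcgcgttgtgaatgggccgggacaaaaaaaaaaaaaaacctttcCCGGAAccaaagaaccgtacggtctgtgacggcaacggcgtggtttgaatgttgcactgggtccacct
Mrpl41, chr2:24975049-24975348, minus strand: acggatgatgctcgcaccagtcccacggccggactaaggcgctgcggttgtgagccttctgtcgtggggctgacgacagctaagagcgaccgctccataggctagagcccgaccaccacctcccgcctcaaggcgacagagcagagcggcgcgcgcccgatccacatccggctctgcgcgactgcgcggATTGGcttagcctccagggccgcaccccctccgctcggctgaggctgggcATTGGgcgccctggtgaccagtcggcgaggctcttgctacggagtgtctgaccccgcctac
The Mrpl10 window holds 1 NRF1 core, 131 bases before the start, and 1 ETS core on the opposite strand, 94 bases before it. The Mrpl30 window holds 1 ETS core, 18 bases before the start. The Mrpl41 window holds 2 CCAAT boxes on the opposite strand, 61 and 11 bases before the start. No AAGATGG or GGGCGG was found in these windows. Of all 32851 promoter windows of the table, 7.76% hold TGCGCA, 14.9% CCGGAA, 6.34% AAGATGG, 37.4% CCAAT and 35.7% GGGCGG. No motif was shared by all 3 windows, and a match to letters is a description, not a binding site.

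Relative to TMM scaling, which equalises the bulk of the genes held, all 4 genes were higher in CKO than in control fibroblasts, by 5.55-fold for Gadd45gip1, 4.12-fold for Mrpl30, 2.53-fold for Mrpl41 and 1.47-fold for Mrpl10. Calls were frequent throughout the table. Of the 770 genes tested 71.4% were called, 34% higher and 37.4% lower, so 4 of 4 called members is read against those shares. Gadd45gip1, Mrpl30 and Mrpl41 were also higher under every other scaling tried, by at least 0.32 on the log2 scale. The rise of Mrpl10 depended on the scaling and became a fall on the TPM scale. In bulk RNA, a change in the share of a cell type and a change in RNA per cell cannot be told apart.

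**Figure D1:**
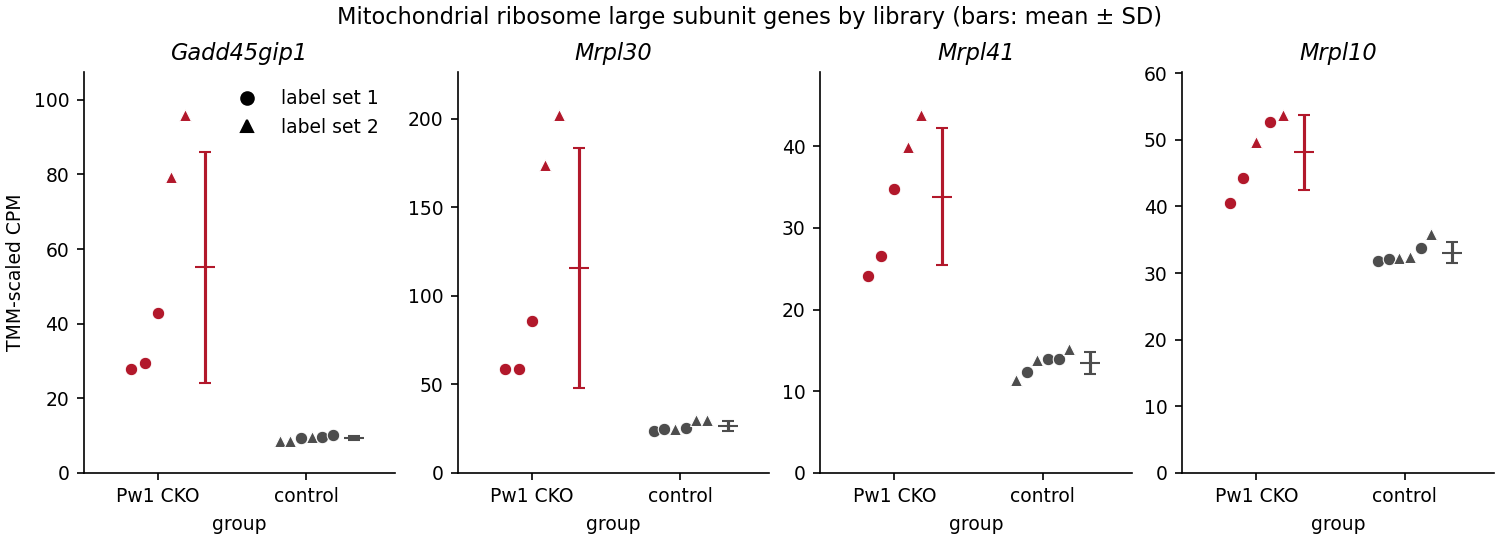
TMM-scaled CPM (read counts scaled to library size, vertical axes from 0) of the 4 genes in each library, with CKO in red and control in grey, circles for label set 1 and triangles for label set 2; points are spread sideways by value and bars give the mean ± SD (n = 5 and 6). In each panel the lowest CKO library is above the highest control library, and for Gadd45gip1 and Mrpl30 the 2 CKO libraries of set 2 (79.4 and 95.9 CPM, and 174 and 202 CPM) stand above the 3 of set 1.

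Gadd45gip1 had 42.8, 27.8 and 29.4 CPM (counts scaled to library size) in CKO 1, 2 and 3, with 95.9 CPM in CKO a and 79.4 CPM in CKO b, against a lowest, median and highest value of 8.58, 9.47 and 10.1 CPM in the controls. Every CKO library was above every control library. The spread was far wider among CKO libraries (55.1 ± 30.8 CPM, SD, n = 5) than among controls (9.33 ± 0.609 CPM, SD, n = 6). Its log2 change was 2.47 (SE 0.27; edgeR quasi-likelihood test, adjusted p = 1.23e-05), the 25th highest of the 770 genes.

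Mrpl30 had 85.9, 58.6 and 58.4 CPM in CKO 1 to 3, with 202 CPM in CKO a and 174 CPM in CKO b, against 23.5, 25.3 and 30.1 CPM as the lowest, median and highest of the controls. The groups did not overlap, and CKO a and b each had more than any of CKO 1 to 3. Group means were 116 ± 67.7 CPM in CKO (SD, n = 5) and 26.4 ± 2.82 CPM in control (SD, n = 6). The log2 change was 2.04 (SE 0.23; edgeR adjusted p = 1.52e-05).

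Mrpl41 was at 34.8, 26.6 and 24.1 CPM in CKO 1 to 3, with 43.8 CPM in CKO a and 39.9 CPM in CKO b, against 11.4, 13.8 and 15.2 CPM as the lowest, median and highest of the controls. Again the lowest CKO library exceeded the highest control. Means were 33.9 ± 8.42 CPM in CKO (SD, n = 5) and 13.4 ± 1.38 CPM in control (SD, n = 6), a log2 change of 1.34 (SE 0.14; edgeR adjusted p = 9.18e-06).

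Mrpl10 had 52.7, 44.2 and 40.5 CPM in CKO 1 to 3, with 53.7 CPM in CKO a and 49.6 CPM in CKO b, against 31.8, 32.3 and 35.9 CPM as the lowest, median and highest of the controls. The 2 groups were closest for this gene, with 48.2 ± 5.66 CPM in CKO (SD, n = 5) and 33.0 ± 1.56 CPM in control (SD, n = 6). Its log2 change of 0.55 (SE 0.08; edgeR adjusted p = 8.51e-05) was the 220th highest of 770. Before scaling, its expected counts were 955, 857 and 786 in CKO 1 to 3, 764 in CKO a and 747 in CKO b, against 731 to 827 in the controls, so the deposited counts themselves overlapped. Groups without overlap in CPM, seen with CKO higher for 4 of 4 members, occurred in 56.4% of all genes tested, in 27.1% with CKO higher and in 29.2% with CKO lower.

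The 4 genes of the subunit did not move in proportion. A ratio of 2 genes within a library does not depend on how libraries are scaled to each other, and all 6 pairs were compared. The log2 ratio of Gadd45gip1 to Mrpl10 counts was -0.67 to 0.84 in the CKO libraries (median -0.3) and -1.91 to -1.72 in the controls (median -1.84), a difference of 1.84. For Mrpl30 to Mrpl10 it was 0.41 to 1.91 in CKO and -0.52 to -0.11 in control, a difference of 1.4. In every control library Mrpl30 had fewer reads than Mrpl10, and in every CKO library more.

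The remaining ratios moved by less. Gadd45gip1 to Mrpl41 differed by 1.07, and it was above 0 in the CKO libraries (0.06 to 1.13) and below 0 in the controls (-0.83 to -0.28). Mrpl41 to Mrpl10 was -0.75 to -0.29 in CKO and -1.51 to -1.08 in control, a difference of 0.77. Mrpl30 to Mrpl41 differed by 0.63, with the lowest CKO and the highest control library both at 1.14 after rounding. Gadd45gip1 to Mrpl30 had the smallest difference between the groups in counts, at -1.14 to -0.99 in CKO and -1.8 to -1.21 in control, a difference of 0.44. No ratio overlapped between the groups over the 11 libraries (exact permutation test, 2-sided p = 0.00433 for each pair, the smallest that 462 splits allow, and 0.00433 after Benjamini-Hochberg adjustment over the 6 pairs). These splits take no account of the label set. The share of all gene pairs that separate in this way was not computed. Of single genes, 56.4% of 770 separated in CPM, so separation of a ratio is not shown to be particular to these pairs. Within set 1 the differences for the same 6 pairs had the same sign, from 0.31 for Gadd45gip1 to Mrpl30 to 1.27 for Gadd45gip1 to Mrpl10 (exact permutation p = 0.1 for each, the smallest possible). Within set 2 they were 0.56 to 2.66 (exact permutation p = 0.2 for each, the smallest possible). Such a ratio shows unequal change and not that any 1 gene stayed constant. A ratio of counts also carries any trend of a library with transcript length: after each library's length trend was removed in the fit, the log2 change of Mrpl30 (0.73) was under that of Mrpl41 (1.26), the reverse of their order in counts, and well under that of Gadd45gip1 (1.98).

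**Figure D2:**
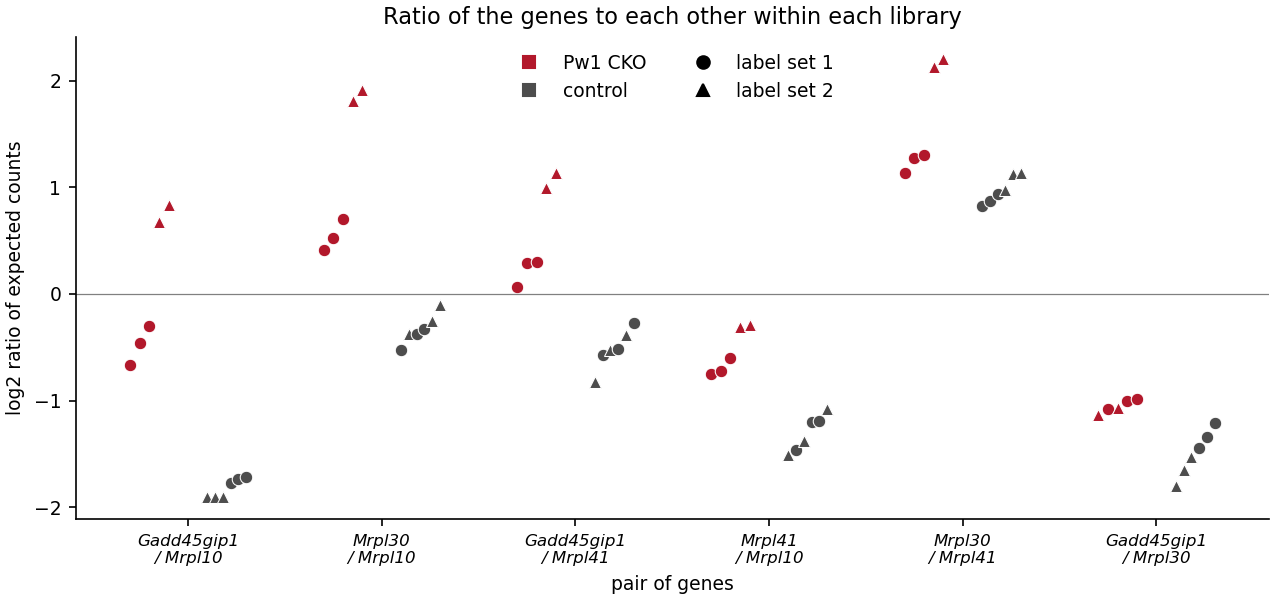
Log2 ratio of expected counts (vertical axis) for each of the 6 pairs of genes, 1 point per library, CKO in red to the left of control in grey, circles for label set 1 and triangles for label set 2. The red points lie above the grey ones in every pair, by 1.84 on average for Gadd45gip1 to Mrpl10 and by 0.44 for Gadd45gip1 to Mrpl30, and the Mrpl30 to Mrpl41 ranges touch at 1.14.

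Levels can be compared between genes only per transcript length, and the deposited TPM values of CKO 1 to 3 and the 6 controls were used for this. The TPM values of CKO a and b, which match no single sample, were set aside. Mrpl30 was the most abundant transcript, at 169, 131 and 131 TPM in CKO 1 to 3, against 79.3, 86.5 and 99.1 TPM as the lowest, median and highest of the controls. Mrpl10 came next, with 45.5, 43.7 and 40.4 TPM in the CKO libraries and 48.0, 50.8 and 54.8 TPM in the controls. For Mrpl10 on this scale, each CKO library was below each control library, and for the other 3 genes each was above. Such separation in TPM was found for 73.2% of 699 genes, 11.9% with CKO higher and 61.4% with CKO lower. Gadd45gip1 had 34.4, 25.5 and 27.3 TPM in CKO 1 to 3, against 12.1, 13.7 and 14.9 TPM in the controls. Mrpl41 was the lowest of the 4 in CKO, at 19.8, 17.4 and 15.9 TPM, against 12.4, 14.2 and 15.3 TPM in the controls. The order Mrpl30, Mrpl10, Gadd45gip1, Mrpl41 held in all 3 CKO libraries. In the controls Mrpl30 and Mrpl10 kept the first 2 places, but Gadd45gip1 and Mrpl41 overlapped, and Mrpl41 was above Gadd45gip1 in 4 of 6.

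Summed over the 4 genes, TPM was 214.8 to 268.5 in CKO 1 to 3 and 158.9 to 181.4 in the controls. Of that sum, Mrpl30 made up 60.3% to 62.9% in the CKO libraries and 49.9% to 56.1% in the controls. Mrpl10 made up 16.9% to 20.1% of it in CKO and 28.0% to 32.6% in control. The exact permutation test of TPM between 3 CKO and 6 control libraries gave 2-sided p = 0.0238 for each of the 4 genes, the smallest that 84 splits allow. Within set 1, with 3 libraries in each group, it gave an exact permutation p = 0.1 for each, again the smallest possible.

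The direction of Mrpl10 therefore depended on the scale, and that of the other 3 genes did not. In limma on log2(TPM + 1), the median gene of 699 tested was at -0.60, and 79% of genes were called, 13% higher and 66% lower. On that scale Gadd45gip1 was at 0.96 (SE 0.11), Mrpl30 at 0.78 (SE 0.10), Mrpl41 at 0.32 (SE 0.11; limma adjusted p = 0.0203) and Mrpl10 at -0.21 (SE 0.08; limma adjusted p = 0.0270). Relative to the median gene, all 4 were higher, Mrpl10 by 0.39 and Gadd45gip1 by 1.57. With the recovered library totals as the only scaling, the median of 802 genes was at -0.32, and Gadd45gip1 was at 1.49, Mrpl30 at 1.18, Mrpl41 at 0.80 and Mrpl10 at 0.21 (SE 0.08; edgeR adjusted p = 0.0514, not called). With that scaling 67% of genes were called, 22.1% higher and 44.9% lower. TMM in the same 9 libraries gave 1.83, 1.52, 1.15 and 0.55 for the genes in that order, with a median of 0.01 over all genes, of which 66.8% were called, 33.9% higher and 32.9% lower.

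**Figure D3:**
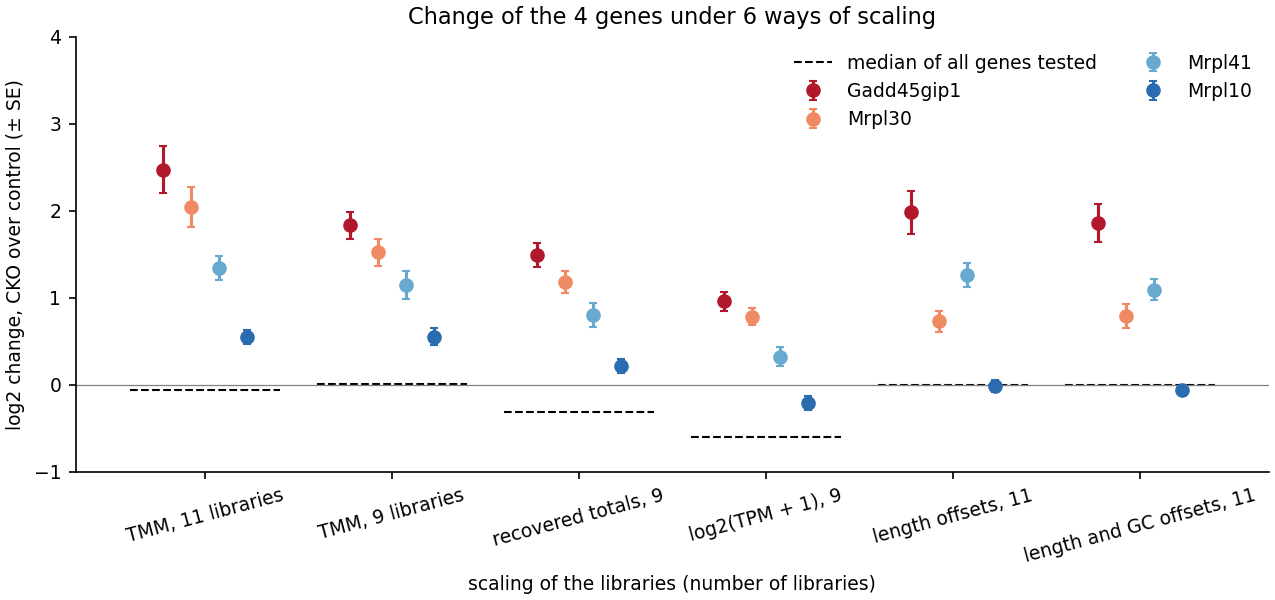
Log2 change of CKO over control (vertical axis, bars ± SE) for the 4 genes under 6 ways of scaling the libraries (horizontal axis), with the median of all genes tested as a dashed line. Gadd45gip1 is the highest under each of the 6, Mrpl10 runs between 0.55 with TMM and -0.21 with TPM, and Mrpl30 falls below Mrpl41 under both length offsets.

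Library-wide transcript length moved with the groups. The mean transcript length of a library, which the ratio of its TPM to FPKM values gives, was 1540 to 1675 nt in CKO 1 to 3 and 2166 to 2294 nt in the controls. The members differ in effective length, the length open to reads that counts and FPKM imply, with means in the controls of 744 nt for Mrpl30, 1615 nt for Mrpl10, 1708 nt for Gadd45gip1 and 2407 nt for Mrpl41. The value for Mrpl41 exceeds its longest coding transcript in GENCODE M21, 776 nt, and lies within its RefSeq span of 2629 nt. The TPM of Mrpl41, its length correction and its order against Mrpl30 after that correction all rest on this implied length. After the trend of each library with effective length was removed by loess offsets, Gadd45gip1 was at 1.98 (SE 0.25; edgeR adjusted p = 5.55e-05), the 16th highest of 738 genes. Mrpl41, the longest of the 4 by effective length, changed least with this correction and was at 1.26 (SE 0.14; edgeR adjusted p = 3.40e-05). Mrpl30, the shortest by effective length, was at 0.73 (SE 0.12; edgeR adjusted p = 0.000425), and Mrpl10 was at -0.02 (SE 0.07; edgeR adjusted p = 0.807). After this correction 69.8% of genes were called, 35.5% higher and 34.3% lower. With GC content corrected as well, where 68.4% of genes were called, 33.7% higher and 34.7% lower, the values were 1.86, 1.09, 0.79 and -0.06 in the same order of genes.

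The effective length itself differed between the groups for Mrpl30. It was 697, 700 and 707 nt in CKO 1, 2 and 3 and 738 to 751 nt in the 6 controls, with no overlap (2-sided exact permutation p = 0.0238 overall and 0.1 within set 1, in each case the lowest that could be reached). For Mrpl10 it was 1584 to 1594 nt in CKO and 1588 to 1644 nt in control, and the groups overlapped over the 9 libraries (exact permutation p = 0.119) but not within set 1 (exact permutation p = 0.1, the lowest that could be reached). For Gadd45gip1 it was 1709 nt in each of the CKO libraries and 1707 to 1709 nt in the controls (exact permutation p = 0.476), and for Mrpl41 2408 to 2409 nt and 2405 to 2408 nt (exact permutation p = 0.238). These are 4 tests of 1 family, in which no p below 0.0238 was possible. The share of all genes whose effective length separates the groups was not computed. The difference is therefore not shown to be particular to Mrpl30. RefSeq lists 3 transcripts each for Mrpl30 and Mrpl10 and 1 each for Gadd45gip1 and Mrpl41. An effective length of a gene is an average over its transcripts weighted by their estimated levels, so a lower value means that more of the estimate lay on shorter transcripts. The transcripts themselves are not given in the table.

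**Figure D4:**
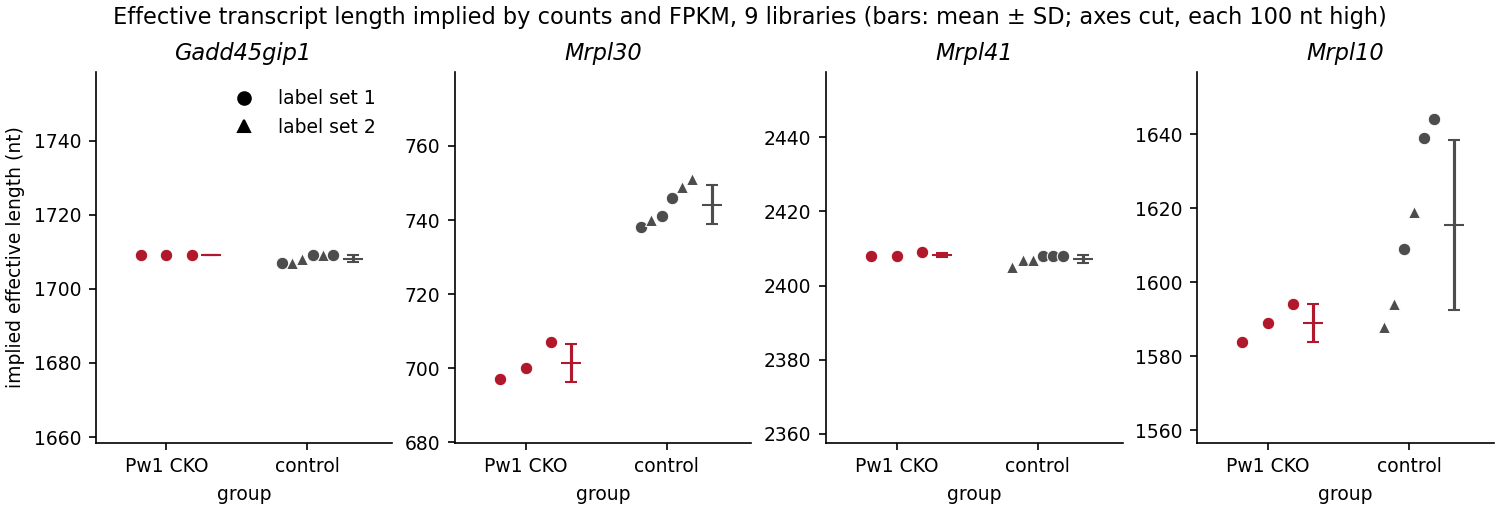
Effective length in nt implied by counts and FPKM for the 4 genes in the 9 libraries whose FPKM values were used. CKO is in red and control in grey, with circles for label set 1 and triangles for label set 2. Bars give the mean ± SD (n = 3 and 6). The axes do not start at 0 and each covers the same height. Mrpl30 stands at 697 to 707 nt in CKO and 738 to 751 nt in control, while Gadd45gip1 and Mrpl41 differ by a few nt at most.

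The CKO effect was measured within each label set, each against its own controls, in 1 fit. Gadd45gip1 was higher by 1.77 (SE 0.15) in set 1 and by 3.28 (SE 0.16) in set 2, and the difference of 1.5 (SE 0.22) passed the test (edgeR adjusted p = 0.000981). Mrpl30 was higher by 1.46 (SE 0.15) in set 1 and by 2.71 (SE 0.16) in set 2, a difference of 1.25 (SE 0.21; edgeR adjusted p = 0.00164). Mrpl41 was higher by 1.09 in set 1 and 1.62 in set 2, and the difference of 0.53 (SE 0.22) did not pass (edgeR adjusted p = 0.0763), though it did without CKO 1, at 0.69. Mrpl10 was higher by 0.49 and 0.61, with a difference of 0.12 (SE 0.14; edgeR adjusted p = 0.537). All 4 were called in each set. Of 844 genes, 62.1% were called in set 1 (29.7% higher, 32.3% lower) and 70.6% in set 2 (33.5% higher, 37.1% lower). The set difference was called for 38.6% of genes (16.7% higher and 21.9% lower in set 2), against 2 of 4 members.

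The mean CPM of CKO a and b was 2.63 times that of CKO 1 to 3 for Gadd45gip1, 2.78 times for Mrpl30, 1.47 times for Mrpl41 and 1.13 times for Mrpl10. Within the 5 CKO libraries, Pearson's r of log2 CPM was 1.0 between Gadd45gip1 and Mrpl30 and 0.77 to 0.96 for the other 5 pairs, as a description of libraries that share the split between sets. Within the 6 controls the same correlations ran from -0.46 to 0.63. Of the 1293 genes held, 152 have a blank count in at least 1 library. The column numbers of CKO a and b match no sample, so the way columns were joined cannot be told apart from the set.

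Few other genes of mitochondrial translation and respiration were among the genes held. None of the 48 other listed large subunit genes, 31 small subunit genes and 22 mitochondrial translation factors was held, and these were not analysed here. Rpusd3, a mitochondrial pseudouridine synthase known in human cells to act with the ribosomal RNA of the large subunit, is the 1 assembly gene held of 33. It had 2.55 ± 0.893 CPM in CKO (SD, n = 5) and 1.06 ± 0.215 CPM in control (SD, n = 6), with overlap between the groups, and a log2 change of 1.26 (SE 0.24; edgeR adjusted p = 0.000588). After the length correction it was at 0.38 and not called (edgeR adjusted p = 0.134). It was also not called with recovered totals, at 0.66 (edgeR adjusted p = 0.078), or on the log2(TPM + 1) scale, at 0.12 (limma adjusted p = 0.576).

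Lars2, the mitochondrial leucyl-tRNA synthetase and the 1 gene held of 21 listed synthetases, moved the other way. It had 6.14 ± 0.891 CPM in CKO (SD, n = 5) and 11.8 ± 0.845 CPM in control (SD, n = 6), a log2 change of -0.94 (SE 0.11; edgeR adjusted p = 1.80e-05), and it was lower under every scaling, from -1.47 with TPM to -0.38 with length and GC offsets. Ndufb11, a complex I subunit and the 1 gene held of 97 listed respiratory chain and ATP synthase genes, rose to 112 ± 47.0 CPM in CKO (SD, n = 5), against 30.4 ± 3.81 CPM in control (SD, n = 6). Its log2 change was 1.84 (SE 0.21; edgeR adjusted p = 1.59e-05), and 0.61 after the length correction. Rpl5, a cytosolic ribosomal protein and 1 of 82 listed, was at 1.41 (SE 0.15; edgeR adjusted p = 9.41e-06) and at 0.43 after the length correction. Of these 4 genes, 3 were called higher and 1 lower with TMM. Over all 770 genes tested, 34% were called higher and 37.4% lower, with a median change of -0.06.

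The genes whose log2 CPM followed each member most closely over the 11 libraries were found among 539 other genes with assigned names. The groups stand apart, so such a correlation mostly reflects the 2 groups and the 2 sets, and it carries no test. For Gadd45gip1 they were Eif4ebp3, Rdh9 and Sharpin, each with Pearson's r of 0.996. For Mrpl30 they were Dph3 (0.998), Jmjd6 (0.995) and Plac9b (0.994). Those of Mrpl41 were Rnh1 and Ndufb11 (both 0.992) and Wdr74 (0.991), and those of Mrpl10 were Gmpr2 (0.973), Rnh1 (0.972) and Tnfaip8 (0.968).

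Recovered totals were 20354616 to 20599380 reads in CKO 1 to 3 and 20362639 to 20649652 in the controls, and the genes held took 2.89% to 2.91% and 2.98% to 3.08% of them. On the genes held, CKO a counted 535048 reads and CKO b 542843, CKO 1 to 3 592881 to 596412, and the controls 611436 to 637764. None of the 11 fibroblast markers listed was held, nor was Peg3, so the cell type and the deletion were not checked here. The 2 red cell markers tested of 5 listed, Hbb-bs and Hbb-bt, summed to 10.1 to 31.4 CPM in CKO and 1.82 to 3.46 CPM in control, with Hbb-bt at 0 in 1 control. Ly6c2, the 1 macrophage and monocyte marker tested of 8, had 78.0 to 223 CPM in CKO and 57.3 to 77.2 CPM in control. Its direction depended on the scaling: with recovered totals it was at 0.17 (edgeR adjusted p = 0.241), with length offsets at -0.24, with length and GC offsets at -0.30 (edgeR adjusted p = 0.0339) and on the log2(TPM + 1) scale at -0.29 (limma adjusted p = 0.0209). The red cell sum was at least 29.2 CPM in CKO a and b and at most 13.9 CPM in CKO 1 to 3, and Ly6c2 was at least 209 CPM in CKO a and b and at most 110 CPM in CKO 1 to 3, so with TMM scaling both stood highest in the CKO libraries where Gadd45gip1, Mrpl30 and Mrpl41 were highest. Their part in the members' changes was not tested.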

How the data were processed

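RNA was measured in 11 libraries. The submitters' processing notes name Bowtie2, RSEM, DESeq2 and GRCm38, and versions and settings are not given in the sources used here. The authors deposited TPM, FPKM and expected counts, per the file headers, with 73.7% of the counts not whole. Expected counts, as deposited, were rounded before tests. Of the table, 1293 genes with a complete row were held, 1141 of them with values in every library. CKO a and b match no single sample, so 4 columns, their TPM and FPKM, were set aside.

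The total of control 1 was recovered from counts, FPKM and the annotated length of 123 genes with 1 coding transcript and FPKM of at least 2 (95% interval 19919900 to 20788287). Other totals were set relative to it, and those of CKO a and b were estimated from the share held in CKO 1 to 3.

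The test of counts was that of edgeR 4.0.16 in R 4.3.3 (TMM, filterByExpr, quasi-likelihood F test, 2-sided, group and label set), with Benjamini-Hochberg adjusted p under 0.05 called over all genes tested. Standard errors are those implied by the F statistic. Alternatives used DESeq2 1.42.0, limma 3.58.1 (voom, and log2(TPM + 1) with TPM of at least 1 in 3 libraries), loess offsets (span 0.5) and other filters and libraries. Steps were tested on simulated data. Promoter sequences are from RefSeq on GRCm38.p6.

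The members and lists were chosen with earlier results of these data known. The named genes are the 4 members, all tested genes of lists with up to 4 of them, and the 3 genes most correlated with each member, leaving out predicted names and a mean CPM under 1 (log2 of CPM + 0.5). TMM over 9 libraries and length offsets within each label set were added after seeing the data.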

Additional observations from a re-analysis of the deposited data

Results flagged for a closer look

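Gadd45gip1 had a larger CKO effect in label set 2 than in set 1, by 1.5 on the log2 scale (3.28 in set 2 minus 1.77 in set 1), as had Mrpl30, by 1.25 (2.71 minus 1.46), each in a test of the difference itself. After the length correction these differences were 1.47 and 0.71, and both were still called (edgeR adjusted p = 0.000671 and 0.00182). No library of the 4 genes stood far from the others of its group in the 12 groups of CPM or TPM values looked at, where chance alone gives about 1 in 20. The rule looks at the gap between 1 end library and the next, so it can miss 2 that stand off together. CKO a and b did so for Gadd45gip1 and Mrpl30. The TPM values of the CKO libraries were too few for the rule and were not looked at.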

How the results depend on the processing

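The changes of Gadd45gip1 (0.96 to 3.29), Mrpl30 (0.39 to 2.73) and Mrpl41 (0.32 to 1.64) kept their direction and their call under all 29 alternatives. Mrpl10 did so under 21. It was not called with recovered totals (0.21), or with length offsets in set 2 alone (0.05), and it was below 0 on the log2(TPM + 1) scale with and without a filter and with a pseudocount of 0.1 (-0.21 each), with length offsets (-0.02), in set 1 alone with them (-0.03), and with length and GC offsets (-0.06). The cause was not tested. With 1 library left out at a time, Gadd45gip1 was at 2.31 to 2.65, Mrpl30 at 1.91 to 2.19, Mrpl41 at 1.27 to 1.42 and Mrpl10 at 0.52 to 0.60, and all were called. The number of genes called was 424 to 614, against 550, and 521 to 564 with 1 library left out.

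The set difference of Mrpl41 (0.53) was called with length offsets (0.65) and ranged from 0.42 to 0.69 with 1 library left out. Those of Gadd45gip1 (1.36 to 1.72), Mrpl30 (0.71 to 1.46) and Mrpl10 (0.04 to 0.22) stayed on their side of the threshold in the 13 alternatives run. The 326 genes with a set difference became 219 to 396 with 1 library left out.

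The sample titles of both groups share replicate numbers in each set. In set 2 the columns of CKO a and b match none of these numbers, so pairing could be checked in set 1 alone. Same-numbered libraries correlated in their deviations from the group means by 0.103, 0.055 and 0.227, and differently numbered ones by -0.168 to 0.0497. The same-numbered values were thus low but the highest, and this check does not exclude pairing. The main fit did not take the numbers as pairs. With the replicate block in set 1, 479 of 766 genes were called, against 499 without it, and Gadd45gip1 was at 1.74, Mrpl30 at 1.43, Mrpl41 at 1.07 and Mrpl10 at 0.48.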
